A study of Gallus gallus with 20 samples.

Results

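P4HB, PDIA3, PDIA4, PDIA6 and CANX are folding enzymes and chaperones of the endoplasmic reticulum, the compartment in which secreted and membrane proteins take their shape. They were taken by gene symbol from the deposited expression tables, which held all 5 of them among 17108 genes. RNA was measured in liver and in pectoralis major, the breast muscle, of male Ross 708 broiler chickens at post-hatch day 35. The 4 groups were liver of birds on a methionine-deficient diet, liver of birds on the control diet with L-methionine, breast muscle of birds on the deficient diet and breast muscle of birds on the control diet, with 5 libraries each. Both diets were fed between weeks 3 and 5 of age, so that all birds shared breed, sex, age and feeding period. Since the labels count 5 birds per diet, each library of a tissue was treated as a bird of its own. By that count the tissues share birds, but which liver belongs to which muscle is not given, and fits over both tissues took the 20 libraries as separate.

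Proteins enter the endoplasmic reticulum as unfolded chains and often need disulfide bonds between cysteines. Protein disulfide isomerases form, break and reshuffle these bonds, while the lectin chaperones hold glycoproteins until their sugar chain has been trimmed. Hepatocytes send out most of the plasma proteins and carry much of this machinery, whereas muscle fibres make mainly proteins that stay in the cytosol, and the fibroblasts and immune cells of a muscle secrete collagen and other proteins. P4HB is the founding disulfide isomerase and also a subunit of collagen prolyl 4-hydroxylase and of the microsomal triglyceride transfer protein, which loads lipid onto apolipoprotein B. PDIA3 is the disulfide isomerase that works with the lectin chaperones and in loading of MHC class I. PDIA4 and PDIA6 are further members of the family that work beside the Hsp70 chaperone HSPA5. CANX, calnexin, is the membrane-bound lectin chaperone.

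In the galGal4 assembly used for the files, P4HB (ENSGALG00000007233) spans 10183770 to 10202043 of chromosome 18 and PDIA3 (ENSGALG00000008348) spans 19625880 to 19635020 of chromosome 10. PDIA4 (ENSGALG00000012415) lies on chromosome 2 between 54483350 and 54494846, PDIA6 (ENSGALG00000016447) on chromosome 3 between 96496306 and 96513540, and CANX (ENSGALG00000005945) on chromosome 13 between 12858024 and 12874898. Each gene had 1 annotated transcript, of 1560 bases for P4HB, 2108 for PDIA3, 2364 for PDIA4, 2996 for PDIA6 and 3150 for CANX. The files do not give the strand. All 5 genes had a successful estimate in each of the 20 libraries.

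Levels are FPKM, fragments per kilobase of transcript relative to all mapped fragments of the library, which corrects for transcript length. The files hold no read counts. Coverage times transcript length gave 1.404 to 2.746 assigned gigabases per library. The authors' own 95% limits for the FPKM of the 5 genes reached 2.19 to 10.1% to either side of the midpoint of the limits. In 19 of 100 cases the FPKM lay outside its own limits, nearly all of them in liver. The liver cases of PDIA4 and CANX lay below the lower limit and those of PDIA3 above the upper limit. In liver control 1 PDIA4 was 154.5 with limits of 155.7 to 166.5, and PDIA3 was 255.1 with limits of 239.1 to 252.3. The cause was not tested. Tissue identity was clear in the marker genes. The summed scaled FPKM of 15 hepatocyte genes was 23358 to 69895 in liver, against 709 to 3231 in breast muscle, and the summed myocyte genes reached 17295 to 50127 in breast muscle. In liver the same myocyte sum was 0.687 to 1.18 in 9 libraries and 145.7 in liver control 1. Transcripts of the mitochondrial genome took 63.1% of the FPKM in liver control 4 and 36.1% in liver deficient 1. The other 18 libraries had 14.1 to 22.9%. The fits of diet and tissue effects were therefore also computed without liver control 4 and liver deficient 1. The permutation tests, correlations and rankings in liver were not repeated without this pair.

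All 5 genes were more abundant in liver than in breast muscle on both diets. For this comparison the FPKM values were scaled over the 20 libraries together. P4HB averaged 318.0 ± 59.3 in deficient liver and 51.8 ± 5.29 in deficient breast muscle (SD, n = 5 each). On the control diet it averaged 320.8 ± 33.3 in liver and 72.0 ± 7.65 in breast muscle (SD, n = 5 each). The fitted difference was 5.98-fold on the deficient diet (adjusted p = 2.2e-13) and 4.41-fold on the control diet (adjusted p = 5.3e-12), from the linear model of limma over 20 libraries with Benjamini-Hochberg adjustment over 10771 genes. Among those genes 37.3% were higher in liver on the deficient diet and 35.7% on the control diet. A call in this direction was thus common, and the split of calls depended on the scaling. For control birds it was 3847 higher and 3634 lower in liver, against 2945 and 4440 without scaling. For deficient birds it was 4021 and 3897, against 4562 and 3174 without scaling and 3685 and 4183 with quantile normalization.

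PDIA4, the isomerase with the next largest contrast, averaged 150.6 ± 75.6 in deficient liver and 36.3 ± 2.53 in deficient breast muscle, a 3.69-fold difference (adjusted p = 5.3e-06). Its difference on the control diet was 3.19-fold (adjusted p = 2.5e-05). PDIA3 was 2.95-fold higher in liver on the deficient diet (adjusted p = 1.1e-07) and 2.39-fold higher on the control diet (adjusted p = 2.3e-06). These 3 genes separated the tissues fully, in that every liver library lay above every breast library whatever the diet, which held for 21.9% of all genes tested.

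CANX was 2.20-fold higher in liver on the deficient diet (adjusted p = 9.2e-06) and 1.61-fold on the control diet (adjusted p = 0.0020). PDIA6 was 1.92-fold higher on the deficient diet (adjusted p = 0.00047) and 1.60-fold on the control diet (adjusted p = 0.0073), and the call on the control diet was lost without scaling (log2 difference 0.46, adjusted p = 0.061) and with quantile normalization (0.38, adjusted p = 0.10). Both genes overlapped between the tissues over the 20 libraries, since the lowest liver values, 54.8 for PDIA6 and 38.3 for CANX in liver deficient 5, fell below the highest breast values of 71.0 and 38.7 in breast control 5.

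**Figure D1:**
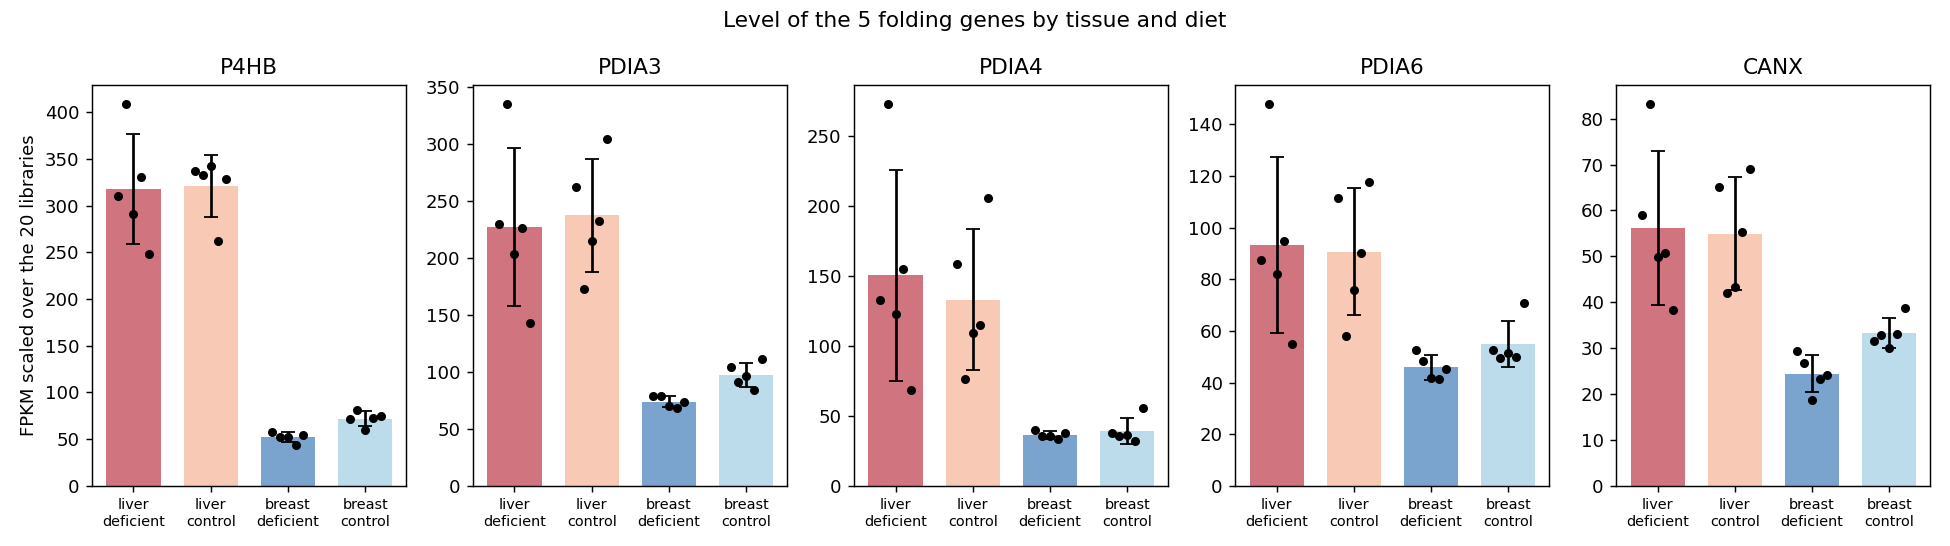
FPKM scaled over the 20 libraries (y axis, linear, its range set per gene) for the 5 folding genes in liver and breast muscle by diet. Points are libraries, bars group means and error bars SD (n = 5). P4HB averaged 318.0 and 320.8 in the liver groups, against 51.8 and 72.0 in the breast groups.

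The order of the 5 genes differed between the tissues. In liver, per length, P4HB stood first, followed by PDIA3, PDIA4, PDIA6 and CANX, and each neighbouring pair kept this order in all 5 libraries of both diets although the ranges of neighbours overlapped. In breast muscle PDIA3 stood first, followed by P4HB, PDIA6, PDIA4 and CANX. PDIA3 and P4HB did not overlap in either breast group, and PDIA6 and P4HB overlapped in both. PDIA4 and CANX changed places in 1 of the 5 control muscles.

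The ratio of P4HB to PDIA3 was 1.44 ± 0.189 in deficient liver and 1.40 ± 0.358 in control liver, against 0.701 ± 0.0486 in deficient breast muscle and 0.747 ± 0.123 in control breast muscle (SD, n = 5 each). Likewise PDIA4 exceeded PDIA6 in liver, with ratios of 1.55 ± 0.218 on the deficient diet and 1.44 ± 0.187 on the control diet, and lay below it in breast muscle, at 0.796 ± 0.0486 on the deficient diet and 0.713 ± 0.0523 on the control diet (SD, n = 5 each). For both ratios every liver library lay above every breast library.

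In breast muscle, 3 of the 5 genes, P4HB, PDIA3 and CANX, fell on the methionine-deficient diet, while PDIA6 and PDIA4 did not pass the test. Among all 10173 genes tested in this tissue, 13.9% fell and 14.2% rose, and the groups lay apart with the deficient libraries below in 9.46%. The median of all genes was 0.02 on the log2 scale. Without scaling between libraries that median was -0.25, and 322 genes rose and 3200 fell in place of 1441 and 1413. With upper-quartile scaling 984 rose and 1719 fell. The scaling factors themselves separated the diets, at 1.03 to 1.28 in control muscle and 0.772 to 0.994 in deficient muscle. So did the number of genes at an FPKM of 1 or more, 10102 to 10589 in control muscle and 9143 to 9962 in deficient muscle. The cause of these differences was not tested. The values below were scaled within breast muscle.

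P4HB stood at 57.5, 51.6, 51.8, 42.6 and 54.4 in deficient muscle, against 71.9, 81.2, 61.1, 73.3 and 75.7 in control muscle. Every deficient library lay below every control library. The log2 change was -0.49 with a 95% interval of -0.72 to -0.25, and the level fell by 28.6% (limma, adjusted p = 0.0087). An exact two-sided permutation test of the 10 libraries gave p = 0.0079, the smallest that 252 labelings allow. Every gene whose diets do not overlap reaches this value, and 9.46% of all genes lay apart with the deficient libraries below. After adjustment over the 10 tests of 5 genes in 2 tissues it was 0.026. That adjustment does not cover the choice of the 5 genes, which was made with earlier results of these data known.

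PDIA3 stood at 79.3, 77.5, 69.7, 67.4 and 74.0 in deficient muscle, against 105.3, 91.6, 98.3, 84.1 and 112.7 in control muscle. The diets did not overlap here either. The log2 change was -0.41 (95% interval -0.63 to -0.19), and PDIA3 fell by 24.7% (adjusted p = 0.013, exact permutation p = 0.0079).

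The lectin chaperone CANX had 29.5, 26.3, 18.7, 22.9 and 24.2 in deficient muscle, against 32.0, 33.0, 30.6, 33.3 and 39.2 in control muscle. All 5 deficient libraries were below the lowest control, the first of them narrowly. With a log2 change of -0.46 (95% interval -0.72 to -0.20), CANX fell by 27.3% (adjusted p = 0.018, exact permutation p = 0.0079). Each of these 3 calls was kept when any 1 of the 10 libraries was left out and under the 11 other settings.

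PDIA6 had 52.8, 47.5, 41.5, 41.0 and 45.2 in deficient muscle, against 53.2, 49.8, 52.3, 50.2 and 71.9 in control muscle. The deficient libraries were low, 4 of 5 of them below the lowest control, and control 5 stood far above the other controls. The log2 change was -0.27 (95% interval -0.53 to -0.01, adjusted p = 0.12; exact permutation p = 0.040, adjusted 0.099). It was -0.17 without breast control 5 (adjusted p = 0.22), and it passed the threshold without scaling (-0.60, adjusted p = 0.0080), with upper-quartile scaling (-0.37, adjusted p = 0.049) and with quantile normalization (-0.43, adjusted p = 0.025).

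PDIA4 had 40.1, 34.9, 35.3, 32.9 and 37.7 in deficient muscle, against 38.5, 35.7, 37.1, 31.9 and 56.2 in control muscle. The diets overlapped throughout, apart from the high value of control 5. The log2 change was -0.11 (95% interval -0.42 to 0.19, adjusted p = 0.57), and 0.02 without breast control 5 (adjusted p = 0.92). Without scaling it was -0.44 (adjusted p = 0.037).

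Because each library was its own reference, ratios between the genes, chosen after the values were seen, did not depend on the scaling. PDIA4 relative to PDIA3 was 0.492 ± 0.0247 in deficient muscle and 0.402 ± 0.0545 in control muscle, with an exact permutation p of 0.024. Relative to P4HB it was 0.704 ± 0.0382 in deficient muscle and 0.552 ± 0.128 in control muscle (SD, n = 5 each; exact permutation p = 0.040). None of the 10 ratio tests, over 5 ratios in 2 tissues, passed after adjustment (0.099 for the 4 ratios with PDIA4 in breast muscle). P4HB relative to PDIA3 was 0.701 ± 0.0486 in deficient muscle and 0.747 ± 0.123 in control muscle, a difference within the spread (exact permutation p = 0.47).

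**Figure D2:**
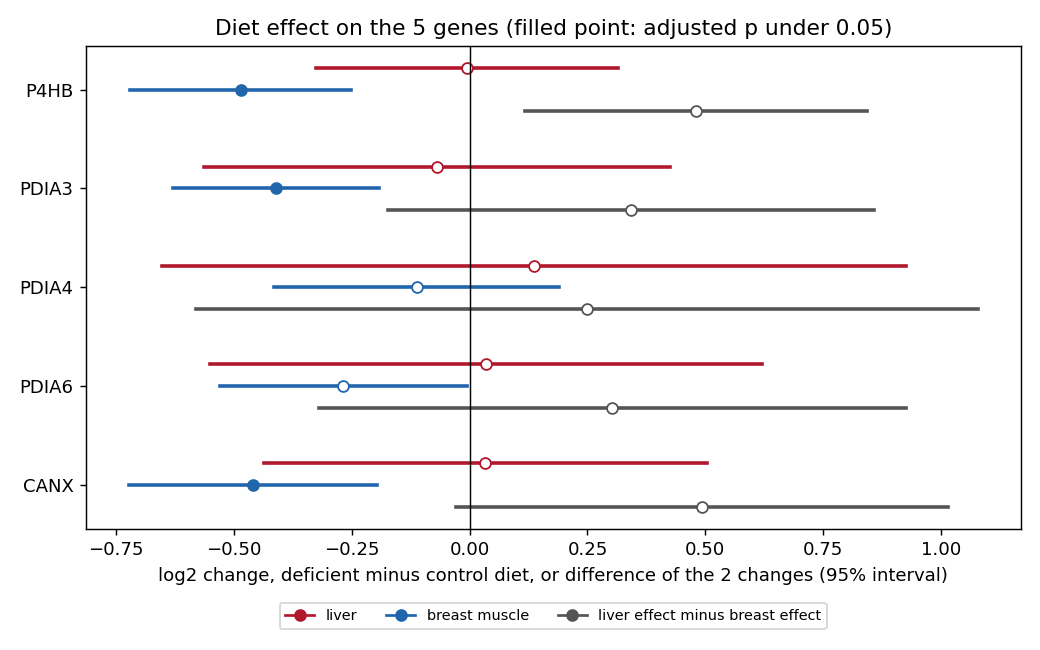
Log2 change by diet (x axis, deficient minus control) for the 5 genes in liver and breast muscle, and the liver effect minus the breast effect, each with its 95% interval from limma. Filled points passed an adjusted p of 0.05, as P4HB (-0.49), PDIA3 (-0.41) and CANX (-0.46) did in breast muscle and no gene did in liver.

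In liver none of the 5 genes was called, and their levels varied widely within each diet. Across all 10185 genes tested in liver limma called 0 (0.00%) at an adjusted p under 0.05, with 849 genes (8.34%) at an unadjusted p under 0.05. P4HB stood at 310.3, 406.9, 293.7, 333.8 and 247.3 in deficient liver, against 330.7, 325.6, 340.3, 259.1 and 328.9 in control liver, with values scaled within liver. The diets overlapped, with the highest and the lowest value both in deficient birds, and the log2 change was -0.01 (95% interval -0.33 to 0.31, adjusted p = 0.99).

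PDIA4 varied most, with 132.9, 271.8, 124.1, 156.7 and 68.0 in deficient liver, against 155.6, 74.8, 108.2, 114.0 and 206.6 in control liver. Its coefficient of variation was 49.8% in deficient liver and 38.5% in control liver, while in breast muscle it was 7.68% on the deficient diet and 23.7% on the control diet. The log2 change was 0.14 with a 95% interval of -0.65 to 0.93 (adjusted p = 0.95), which includes decreases as large as those of the 3 called genes in muscle. PDIA3 ranged over 142.7 to 333.4 in deficient liver and 168.6 to 305.2 in control liver (log2 change -0.07, 95% interval -0.56 to 0.43). PDIA6 ranged over 54.6 to 147.2 in deficient liver and 56.8 to 117.8 in control liver (0.03, -0.55 to 0.62), and CANX over 38.2 to 82.8 in deficient liver and 41.1 to 69.1 in control liver (0.03, -0.44 to 0.50).

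The difference between the tissues was itself tested as the liver effect minus the breast effect. It was 0.48 for P4HB (95% interval 0.12 to 0.84, adjusted p = 0.087) and 0.49 for CANX (-0.03 to 1.01, adjusted p = 0.22). For PDIA3 it was 0.34 (adjusted p = 0.42), for PDIA6 0.30 (adjusted p = 0.57) and for PDIA4 0.25 (adjusted p = 0.75). None passed, so the fall in muscle was not shown to differ from the effect in liver; 5.24% of 9142 genes were called higher and 3.98% lower in this contrast. Leaving out liver deficient 5, in which all 5 genes were at their lowest liver value, brought P4HB past the threshold (0.57, adjusted p = 0.038), as did library weights (0.51, adjusted p = 0.048), upper-quartile scaling (0.59, adjusted p = 0.046), quantile normalization (0.72, adjusted p = 0.019) and no scaling (0.86, adjusted p = 0.0093). The split of calls in this contrast moved with the scaling as well, with 479 higher and 364 lower as fitted, 1799 and 72 without scaling, 628 and 217 with upper-quartile scaling, and 428 and 497 with 1 scaling over the 20 libraries.

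Within liver the genes moved together from bird to bird. Across the 10 libraries, log2 levels of PDIA3, PDIA4, PDIA6 and CANX correlated with each other at Pearson's r of 0.942 to 0.984 (Spearman's rho 0.855 to 0.976; adjusted permutation p of at most 0.00012 for r and 0.0049 for rho, over 10 relations). Without the 2 libraries farthest from the median, liver deficient 2 and liver deficient 5, r was 0.863 to 0.962. P4HB followed less closely, with r of 0.590 to 0.705 (adjusted permutation p of 0.032 to 0.069) and rho of 0.45 to 0.60 (adjusted permutation p of 0.10 to 0.19). Without the 2 libraries farthest from the P4HB median, liver control 4 and liver deficient 5, its r was 0.546 to 0.627. Liver deficient 2 held the highest value of all 5 genes and liver deficient 5 the lowest. The summed hepatocyte markers were also highest in liver deficient 2 (69895) and lowest in liver deficient 5 (23358), and the part of this in the correlations was not tested. In breast muscle 3 of the genes separated the diets and each diet held 5 libraries, so no correlation between the 5 genes was tested there.

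**Figure D3:**
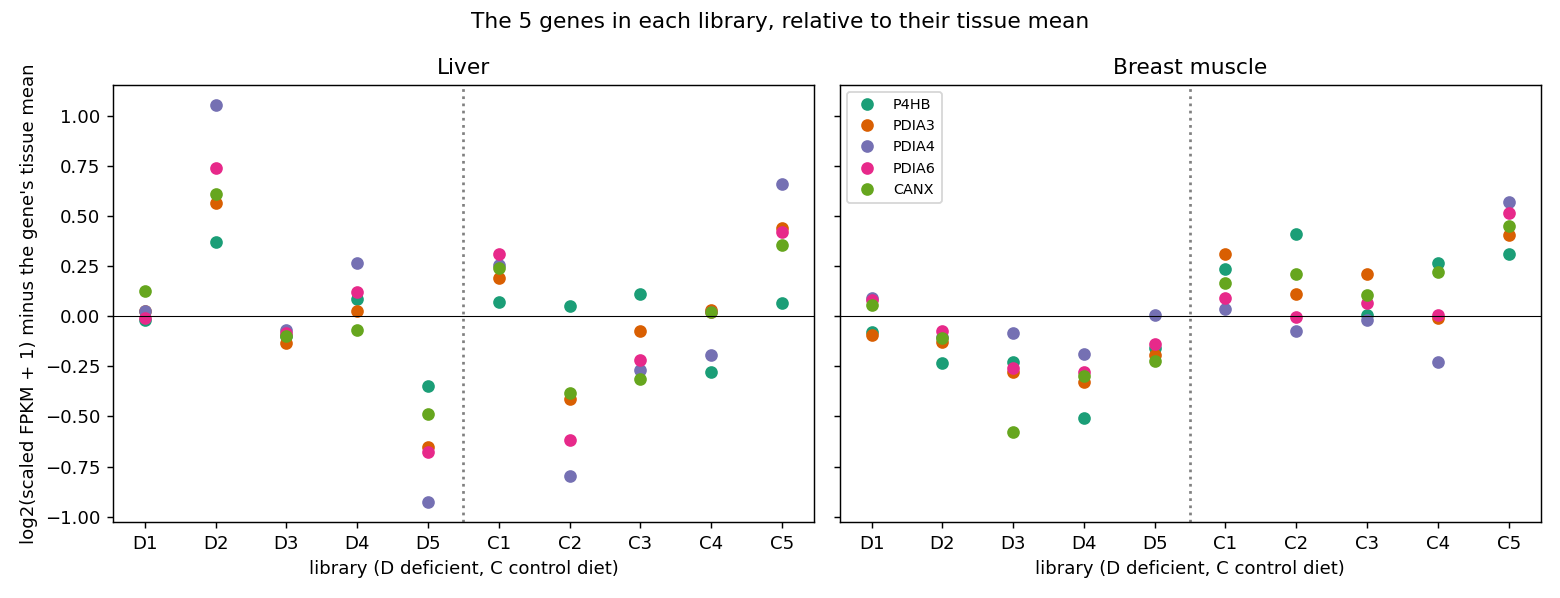
Log2(scaled FPKM + 1) of the 5 genes in each library minus the gene's mean over the 10 libraries of the tissue (y axis), deficient libraries D1 to D5 on the left and control libraries C1 to C5 on the right. In liver all genes are highest in D2 and lowest in D5, and in breast muscle C5 is the highest library for PDIA3, PDIA4, PDIA6 and CANX.

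The genes whose pattern across the 10 libraries of a tissue was most like the mean of the 5 were ranked by Pearson's r, as a description without a test. In liver the closest of 9287 genes were NUCB2 (r = 0.979), a calcium-binding protein, SLC35B1 (0.951), which in human cells brings ATP into the endoplasmic reticulum, HSP90B1 (0.951), the Hsp90 of this compartment, DNAJB11 (0.950), a cochaperone of HSPA5, and CRELD2 (0.944), a resident of the same compartment. HSPA5 ranked 20 (0.905) and CALR, the soluble lectin chaperone, 19 (0.911). HSP90B1 had its extremes in the same libraries as the 5 genes, the highest at 528.3 in liver deficient 2 and the lowest at 104.0 in liver deficient 5. Among the 100 closest genes in liver 15 came from the 145 ranked genes of the endoplasmic reticulum lists described next, whose median r was 0.42, against -0.0035 over all genes.

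In breast muscle the closest of 9372 genes were STK38L (r = 0.963), a protein kinase, DMA (0.959), a chain of the MHC class II loading factor DM, DNAJB11 (0.945), SLC33A1 (0.940), the acetyl-CoA carrier of the endoplasmic reticulum membrane, and STAT3 (0.932), a transcription factor of cytokine signalling. All of them were called lower on the deficient diet, with log2 changes between -0.89 for DMA (adjusted p = 0.0028) and -0.31 for DNAJB11 (adjusted p = 0.021), and the coefficients include this difference between the diets. All of them also had their highest muscle value in breast control 5, as did PDIA3, PDIA4, PDIA6 and CANX. The part of this library in the ranking was not tested. Only DNAJB11 was among the 5 closest genes in both tissues. The 144 ranked genes of the endoplasmic reticulum lists placed 5 among the 100 closest, with a median r of 0.37, against -0.07 over all genes.

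Other genes of the secretory pathway were followed in 11 lists by role, of which 149 genes were tested in breast muscle. On the deficient diet 29 of them (19.5%) fell and 8 (5.37%) rose, and without the 5 genes 26 of 144 fell and 8 rose, beside 13.9% and 14.2% of all genes. The median log2 change was -0.11, against 0.02 over all genes. These counts leaned on the scaling and on single libraries, with 92 falling and 0 rising without scaling, 44 falling with upper-quartile scaling, 44 falling and 5 rising with quantile normalization, and 17 falling without breast control 2 or without breast deficient 4. Without breast control 2 the number that rose was 3. The counts of single lists below stand beside the 13.9% of all genes that fell and the 14.2% that rose. The share that fell ran from 7.69% for the Hsp70 and Hsp90 list to 50.0% for the lectin list, which counts CANX. Without CANX 2 of 5 tested lectin genes fell. Several lists lay near the share of all genes, with 18.2% of translocon genes, 17.4% of Golgi transport genes and 16.7% of collagen partners lower.

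Among 18 disulfide isomerases and oxidases 5 fell and 1 rose, with P4HB and PDIA3 among those that fell. Without P4HB, PDIA3, PDIA4 and PDIA6, 3 of 14 fell and 1 rose. The median log2 change was then -0.047 in place of -0.135. QSOX1, an oxidase that makes disulfide bonds in secreted proteins, averaged 5.55 ± 1.30 in deficient muscle and 9.46 ± 0.539 in control muscle (SD, n = 5 each), a log2 change of -0.70 (adjusted p = 0.0047). TXNDC5, a further disulfide isomerase, fell by 0.44 (adjusted p = 0.0068). DNAJC10, a disulfide reductase that serves degradation of misfolded proteins, rose by 0.34 (adjusted p = 0.021), and this call was lost without breast control 2 (adjusted p = 0.056). Of the lectin chaperones and trimming enzymes 3 of 6 fell, namely CANX, the glucose-binding malectin MLEC (-0.37, adjusted p = 0.012) and the mannosidase MAN1B1 (-0.31, adjusted p = 0.015). CALR was not called (-0.22, adjusted p = 0.28). MOGS, GANAB and PRKCSH of this list had no match by name and were not tested.

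The Hsp70 and Hsp90 chaperones and their cofactors showed little that passed, with 1 of 13 lower and 1 higher. HSPA5, the main Hsp70 of the compartment, averaged 111.9 ± 38.5 in deficient muscle and 156.4 ± 79.3 in control muscle (SD, n = 5 each; -0.43, adjusted p = 0.33). Its control values ranged over 90.6 to 294.2. With 1 library left out its change was -0.59 to -0.17, and no such fit called it. DNAJB11 fell by 0.31 (adjusted p = 0.021; lost without breast control 2 or breast deficient 4), and DNAJC1, a membrane-bound cochaperone, rose by 0.48 (adjusted p = 0.014). Of 6 prolyl isomerases PPIB, which acts on collagen, fell by 0.40 (adjusted p = 0.018; 0.050 without breast deficient 4). FKBP10, also a collagen chaperone, fell by 0.44 (adjusted p = 0.033), a call lost in 6 of 10 fits with 1 library left out.

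At the entry to the compartment 4 of 22 translocon and signal peptidase genes fell and 1 rose. SEC61A1, the channel subunit, averaged 9.53 ± 0.914 in deficient muscle and 15.6 ± 2.12 in control muscle (SD, n = 5 each; -0.65, adjusted p = 0.0024). Its paralog SEC61A2 rose by 0.53 (adjusted p = 0.0079), with 35.4 ± 5.07 in deficient muscle and 24.2 ± 2.21 in control muscle (SD, n = 5 each). SEC61B, the small subunit, fell by 0.51 (adjusted p = 0.014). Reads shared by the SEC61A paralogs could be divided between them by the FPKM estimate, which was not tested. Of 9 oligosaccharyltransferase genes STT3A and DDOST fell (-0.31 and -0.30, adjusted p = 0.031 and 0.047), calls lost in 5 and 8 of 10 fits with 1 library left out.

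Of 14 sensors and factors of the unfolded protein response 3 fell and none rose. ATF6B, ERN2, DDIT3, PPP1R15A and TRIB3 of this list had no match by name and were not tested. CREB3L2, a membrane-bound transcription factor, fell by 0.52 (adjusted p = 0.0050), ERN1, the sensor IRE1, by 0.31 (adjusted p = 0.021; 0.051 without breast control 2) and EIF2AK3, the sensor PERK, by 0.28 (adjusted p = 0.037; lost in 7 of 10 such fits). Both sensors were low in muscle, near the filter of 1. ERN1 averaged 2.84 ± 0.395 in deficient muscle and 3.75 ± 0.131 in control muscle (SD, n = 5 each). EIF2AK3 averaged 1.72 ± 0.105 in deficient muscle and 2.295 ± 0.289 in control muscle (SD, n = 5 each). XBP1, the transcription factor downstream of ERN1 (-0.34, adjusted p = 0.18), and ATF6, the sensor and transcription factor of another arm (-0.11, adjusted p = 0.34), were not called. In degradation from the compartment 2 of 20 genes fell and 4 rose. HERPUD1, a component of the degradation complex, averaged 5.94 ± 1.94 in deficient muscle and 12.1 ± 3.97 in control muscle (SD, n = 5 each; -0.91, adjusted p = 0.013), and EDEM1, a mannosidase-like protein, fell by 0.41 (adjusted p = 0.0062).

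Among the partners of P4HB in collagen hydroxylation and folding 2 of 12 (16.7%) fell, beside 13.9% of all genes. They were P4HA3 (-0.71, adjusted p = 0.036, lost in 5 of 10 such fits) and LEPREL4 (-0.75, adjusted p = 0.017). P4HA1 and P4HA2, which with P4HB form the main collagen prolyl 4-hydroxylases, were at -0.03 (adjusted p = 0.83) and -0.08 (adjusted p = 0.75). TPN, tapasin, which pairs with PDIA3 in loading MHC class I, averaged 37.5 ± 6.92 in deficient muscle and 61.3 ± 12.7 in control muscle (SD, n = 5 each; -0.69, adjusted p = 0.014) and was the called gene among 6 other named partners. For transport to the Golgi 4 of 23 genes fell, with the coat proteins SEC24D (-0.66, adjusted p = 0.0026) and SEC23A (ENSGALG00000008793, -0.62, adjusted p = 0.0019) lowest, and SEC24B rose by 0.30 (adjusted p = 0.017). A second identifier with the symbol SEC23A was at 0.10 and not called. Of the 4 named genes that rose, DNAJC10, DNAJC1, SEC61A2 and SEC24B, none kept its call without scaling between libraries, though none changed its sign. Over the 11 other settings DNAJC1 and SEC61A2 were called in 10, and DNAJC10 and SEC24B in 9. Among the list genes named as lower, SEC61B, DNAJB11, PPIB, STT3A and DDOST were called in 10 of 11 settings and P4HA3 in 9. ERN1 was called in 9 and EIF2AK3 in 8 of the 10 settings that tested them.

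**Figure D4:**
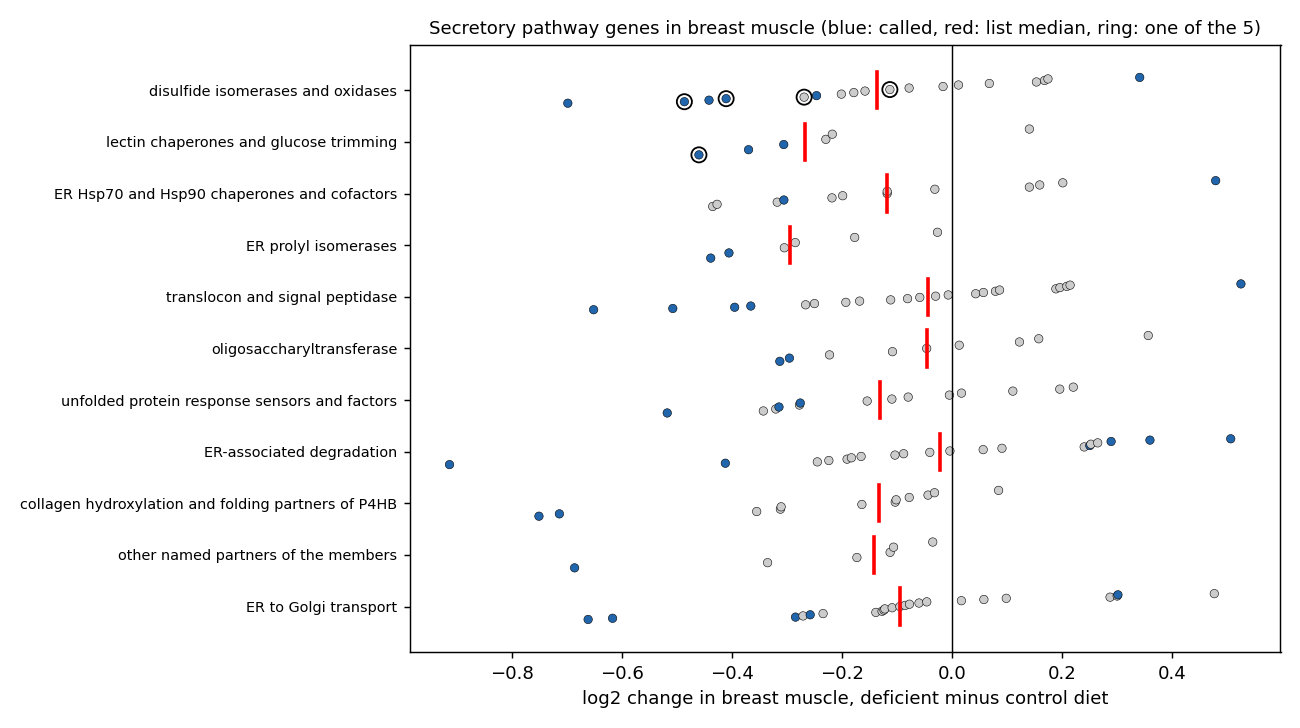
Log2 change in breast muscle (x axis, deficient minus control) for each gene of the 11 secretory pathway lists, 1 list per line. Blue points passed an adjusted p of 0.05, rings mark the 5 genes and red bars list medians; 29 of the 149 genes lie lower with a call and 8 higher.

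Marker genes of several cell types moved with diet in breast muscle, while no endothelial or erythroid gene was called. Among all genes tested in this tissue 13.9% fell and 14.2% rose, and in 9.46% every deficient library lay below every control library. Of 14 macrophage genes 12 fell, and their summed level was 1154 to 1308 in deficient muscle and 2039 to 2511 in control muscle. Heterophil genes fell in 6 of 8 cases (sum 19.5 to 91.8 in deficient muscle, 119 to 343 in control muscle), B and plasma cell genes in 4 of 4 tested (7.23 to 21.3 in deficient muscle, 25.4 to 45.8 in control muscle) and T and NK cell genes in 3 of 5 (35.1 to 46.0 in deficient muscle, 57.4 to 88.3 in control muscle). Of 8 fibroblast genes 3 fell, with sums of 1149 to 1858 in deficient muscle and 1801 to 2424 in control muscle. Each sum, here and below, covers every matched gene of its list, tested or not. The immune sums did not overlap between the diets, and the fibroblast sums overlapped slightly.

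Endothelial genes gave 0 of 7 calls (52.1 to 73.6 in deficient muscle, 46.5 to 66.1 in control muscle) and erythroid genes 0 of 2. Of 8 myocyte genes 6 rose and 1 fell, and their sum was 30443 to 50127 in deficient muscle and 17295 to 28669 in control muscle. Of 5 tested hepatocyte genes 4 fell, with sums over all 15 of 709 to 2614 in deficient muscle and 1917 to 3231 in control muscle. No marker was at 0 in every breast library. The part of these markers in the lower P4HB, PDIA3 and CANX was not tested, and in whole tissue fewer cells of a type and less RNA per cell cannot be told apart.

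In liver none of 150 tested secretory pathway genes was called, with a median change of -0.03, against 0.01 over all genes, and no marker gene of any list was called. The partner of P4HB in lipid transfer, MTTP, averaged below an FPKM of 1 in breast muscle and stood at 41.0 ± 4.0 in deficient liver and 52.0 ± 6.1 in control liver (SD, n = 5 each; log2 change -0.33, unadjusted p = 0.012, adjusted p = 0.43). HERPUD1 was at -0.87 in liver (unadjusted p = 0.021, adjusted p = 0.48), with 31.0 ± 15.6 in deficient liver and 55.7 ± 19.1 in control liver (SD, n = 5 each), beside -0.91 in breast muscle. HSPA5 (0.24, adjusted p = 0.94), CALR (-0.11, adjusted p = 0.94) and XBP1 (-0.0018, adjusted p = 0.999) had no call. The liver changes of the 5 genes stayed between -0.08 and 0.21 under 12 other settings, including the fit without liver control 4 and liver deficient 1, and no gene of the 5 was called under any of them.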

How the data were processed

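The submitters' processing notes name the galGal4 assembly, Cuffdiff 2.1.1, Cufflinks 2.1.1, TopHat2 2.0.9 and Bowtie 1.0.0, without the role of each. Per the labels' protocols, libraries were made from total RNA with an Illumina TruSeq kit. The deposited tables give FPKM per gene and isoform with the authors' limits, and per the file headers a coverage signal and transcript length. Start positions in the files count from 0, and 1 was added.

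FPKM was scaled by median ratios to the geometric mean, within tissue for diet effects and over 20 libraries for tissue levels. Genes averaging a scaled FPKM of 1 or more were tested as log2(scaled FPKM + 1) with limma 3.58.1 (R 4.3.3, mean-variance trend), two-sided, and called where the Benjamini-Hochberg adjusted p was below 0.05. Fold changes are on that scale and understate those of low genes. Failed estimates (ALB in liver; GAPDH, ACTA1 and ACTN1 in breast muscle) were dropped from that tissue. Values were read with Python 3.11.15. The members and lists were chosen with earlier results of these data known; 155 of 181 pathway and 80 of 95 marker entries matched. Besides the 5 genes, the text names genes among up to 3 per list and tissue with the smallest p, the 5 most alike per tissue, and fixed partners; 1 gene the rule would name is not reported here. The fits were tested on simulated data with independent normal noise, where 100 genes per size of change, all of higher level, were changed. In breast muscle 42% of changes of 0.5 and 87% of 1 on the log2 scale were called, and in liver 22% and 74%. For the liver effect minus the breast effect, 23.2% of 99 tested changes of 0.5 and 74% of 100 changes of 1 were called. These shares describe that setting only, since the real data differ in the number of called genes and in correlation between genes. Alternatives covered scaling, pseudocount, filter, failed estimates, variance model, weights, isoform sums, blocks and left-out libraries.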

Additional observations from a re-analysis of the deposited data

Results flagged for a closer look

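In 3 of the 20 groups of 5 values (5 genes, 4 groups) 1 library stood apart from its group by Dixon's criterion, which chance gives in about 1 of 20 groups. PDIA6 was 71.9 and PDIA4 was 56.2 in breast control 5, each the highest of its group, with the gap to the next library 0.848 and 0.727 of the range. P4HB was 259.1 in liver control 4, the lowest of its group, with a gap of 0.819 of the range; this is the library with 63.1% mitochondrial transcripts.

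Of 62 named results tested for a difference between the tissues in the diet effect, 3 passed. Among all 9142 genes, 5.24% were called higher and 3.98% lower in this contrast. The 3 genes were named for their small p by diet in breast muscle, and the contrast holds that same breast effect. Their passing is therefore no independent support. The liver effect minus the breast effect was 0.74 for SEC23A (adjusted p = 0.0095), a call kept with each of the 20 libraries left out. It was -0.50 for DNAJC1 (adjusted p = 0.034, called in 10 of 20 such fits) and -0.60 for SEC61A2 (adjusted p = 0.044, called in 5).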

How the results depend on the processing

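No direction or call of P4HB, PDIA3 and CANX in breast muscle changed under any setting tried. Without scaling between libraries PDIA4 (-0.44) and PDIA6 (-0.60) were called lower in muscle, the liver effect minus the breast effect (the tissue difference) was called for P4HB (0.86), PDIA3 (0.72) and CANX (0.86), and PDIA6 lost its call between control tissues (0.46). Upper-quartile scaling called PDIA6 in muscle (-0.37) and the tissue difference of P4HB (0.59). Quantile normalization called PDIA6 in muscle (-0.43) and the tissue difference of P4HB (0.72), which library weights also called (0.51), and ended the PDIA6 call between control tissues (0.38). Genes called higher and lower in muscle were 322 and 3200 without scaling, and 766 lower with a filter at a mean of 5. Secretory pathway list genes called higher and lower in muscle were 0 and 92 without scaling, 44 lower with upper-quartile scaling, and 5 and 44 with quantile normalization. In liver 1 gene rose and 1 fell without a filter, and 1 fell with the filter at 5. Called tissue differences numbered 1799 higher and 72 lower without scaling, 217 lower with upper-quartile scaling, 255 higher with the filter at 5 and 221 lower without liver control 4 and liver deficient 1. The filter at 5, which tests fewer genes, gave 2507 genes higher in deficient liver than muscle, and 2558 higher and 2372 lower in control liver. The other causes were not tested.

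Same-numbered libraries of the diets correlated at -0.198 to 0.091 in their deviations, and 2 of 10 matched their own number best. Between liver and muscle of 1 diet the 10 same-numbered pairs correlated at 0.0097 to 0.211, 5 of them above 0.1. Of these pairs 8 of 10 matched their own number best. Whether the numbers mark birds is not given and was not tested. Not every pair passed 0.1, so the fits as reported do not pair them. With a replicate block 3 list genes rose and 17 fell in muscle, and the 5 genes kept their calls. With diet and number taken as 1 bird, a setting chosen after seeing the data, the tissue difference of P4HB had an adjusted p of 0.068, and no call of the 5 genes between the tissues changed.

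With 1 library left out, genes called in muscle were 842 to 1666 higher and 993 to 1492 lower, list genes 3 to 10 higher and 17 to 28 lower, and tissue differences 290 to 592 higher and 166 to 541 lower. Without breast control 2 the lowest counts were 842, 290 and 166. In liver 0 to 2 genes rose and 0 to 9 fell, the most without liver control 3. The tissue difference of P4HB was 0.39 to 0.57. Uncalled changes could turn sign in such fits: PDIA4 in muscle was -0.18 to 0.02, and in liver P4HB was -0.10 to 0.08, PDIA3 -0.22 to 0.09, PDIA4 -0.11 to 0.39, PDIA6 -0.14 to 0.21 and CANX -0.11 to 0.16. Read numbers are unknown, and the precision rests on the spread of 5 libraries per group.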
